A study of Mus musculus with 16 samples.

Results

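Cd36, Scarb1, Lrp1, Vldlr and Sdc1 encode receptors through which cells take up fatty acids and lipoproteins. These 5 genes were taken as the probes whose platform gene symbol was one of the names, averaged per symbol. They are 5 of 20551 features with a gene symbol in a table of 36824 features. Cd36, Scarb1, Lrp1 and Sdc1 had 1 probe each and Vldlr had 2. Livers of 8 mice heterozygous for a knockout of Lpl (Lpl+/-) and of 8 wild type mice were profiled, all male and on chow. Strain, age and the kind of Lpl allele are not given in the sources used here. Every mouse was measured on 2-colour arrays against 1 common pool made from the livers of 9 wild type mice. The sample labels do not say whether the wild type mice measured here were part of that pool.

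The liver removes triglyceride-rich lipoproteins, their remnants and high density lipoproteins from the circulation. Heparan sulfate proteoglycans such as syndecan 1, the product of Sdc1, and the large endocytic receptor LRP1 capture remnants on mouse hepatocytes, where apolipoprotein E and lipases act as bridging ligands. SR-BI, encoded by Scarb1, takes cholesteryl esters out of high density lipoproteins without taking up the particle, CD36 aids the uptake of long-chain fatty acids, and the VLDL receptor, better known from fat, heart and muscle, binds triglyceride-rich particles. Lpl encodes lipoprotein lipase, which hydrolyses the triglycerides that these particles carry.

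The deposited values were read as log10 of mouse over pool. The direction is likely rather than stated, and no source used here names the log base. A value above 0 thus stands for more RNA than in the pool. These ratios hold no absolute level, so the genes cannot be ranked by abundance, and in whole liver fewer cells of a type and less RNA per cell cannot be told apart. Over all features, 1 of 120 pairs of arrays, wild type 5 with wild type 8, had a correlation under -0.3 (r = -0.354), which leaves the sign of these arrays unsettled. Comparisons of the 5 genes were therefore repeated with either sign turned. As deposited, these livers also differed in their mean of 15 acute phase genes (-0.608 and 0.0769). Whether such differences between the mice gave the negative correlation was not tested. The Lpl probe was lower in Lpl+/- livers, a fold of 0.419 (limma adjusted p = 0.0158), with all 8 Lpl+/- mice from -0.573 to -0.208 below the wild type range of -0.0622 to 0.0496. This gene helped to settle the direction of the ratios, and whether its probe lies in the deleted sequence is not known. Means of 10 hepatocyte marker genes lay between -0.0546 and 0.0208 in wild type and between -0.157 and 0.0169 in Lpl+/- mice.

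Upstream sequence is shown for the receptors that have an entry in the promoter table and for Sdc4. For the syndecan genes the motif is the GC box, a common promoter element. For the other receptors the motifs are those of factors known to act on gene groups that varied with them between mice. The motifs were chosen after those values were seen. Each sequence runs 5′ to 3′ over the 250 bases before a transcription start in RefSeq annotation of GRCm38.p6. Of the 5 genes, 4 matched the promoter table, at 5 starts in all. Sdc1 (chr12:8771146-8771395, plus strand) and Sdc4, the syndecan gene that moved most closely with it (chr2:164443189-164443438, minus strand), are shown with the GC box GGGCGG in capitals.
Sdc1: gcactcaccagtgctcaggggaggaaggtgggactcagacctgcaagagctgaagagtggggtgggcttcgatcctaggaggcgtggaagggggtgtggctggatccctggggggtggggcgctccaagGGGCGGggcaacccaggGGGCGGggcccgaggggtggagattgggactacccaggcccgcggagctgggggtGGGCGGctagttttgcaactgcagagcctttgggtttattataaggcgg
Sdc4: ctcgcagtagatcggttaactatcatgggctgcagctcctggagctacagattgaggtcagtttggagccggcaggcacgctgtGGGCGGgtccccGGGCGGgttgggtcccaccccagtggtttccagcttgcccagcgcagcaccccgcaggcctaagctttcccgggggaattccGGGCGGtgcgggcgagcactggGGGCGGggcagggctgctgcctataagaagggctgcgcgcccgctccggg
Lrp1 (chr10:127621149-127621398, minus strand) is shown with a match to the STAT motif TTCNNNGAA in capitals, and the first of 2 Vldlr starts (chr19:27216234-27216483, plus strand) with a match to the C/EBP motif TTGCNNAA, read on the opposite strand.
Lrp1: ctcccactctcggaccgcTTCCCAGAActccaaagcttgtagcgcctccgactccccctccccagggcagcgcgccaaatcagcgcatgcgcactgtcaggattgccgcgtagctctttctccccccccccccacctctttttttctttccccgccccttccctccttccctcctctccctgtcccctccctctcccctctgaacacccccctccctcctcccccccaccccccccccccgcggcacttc
Vldlr: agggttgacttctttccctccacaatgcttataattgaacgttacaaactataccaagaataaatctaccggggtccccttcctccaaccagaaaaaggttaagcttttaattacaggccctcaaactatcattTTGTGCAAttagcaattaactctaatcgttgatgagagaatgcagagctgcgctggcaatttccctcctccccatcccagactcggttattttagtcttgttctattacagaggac
STAT and C/EBP factors are known to drive acute phase genes of hepatocytes. All motifs were searched on both strands, and overlaps between different motifs were not removed. The Sdc1 window held 3 GC boxes and the Sdc4 window 4, while 32.7% of 32851 such windows held at least 1. Their G and C content was 66% and 68%, against a median of 52.4% over all windows. The Lrp1 window and the second Vldlr start held 1 GC box each. The STAT motif was found in 7.02% of the windows and the C/EBP motif in 9.56%. The C/EBP motif was not found at the second Vldlr start, while the Sdc1 window, of a gene that had r = -0.103 with the acute phase mean, also held 1 match to it. The Cd36 window (chr5:17835897-17836146, minus strand) held 2 GC boxes and 0 matches to TTANNTAA, a motif of the clock output factors DBP, TEF and HLF, which 5.43% of windows held, and is therefore shown without capitals.
Cd36: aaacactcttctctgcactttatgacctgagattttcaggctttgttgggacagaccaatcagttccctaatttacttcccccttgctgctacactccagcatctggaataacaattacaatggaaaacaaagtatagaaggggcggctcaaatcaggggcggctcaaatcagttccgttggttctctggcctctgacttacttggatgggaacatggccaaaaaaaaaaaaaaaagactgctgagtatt
These matches describe letters only, and no binding was measured.

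Cd36 had the largest difference between genotypes of the 5 genes. Wild type mice ranged from -0.154 to 0.139 with a median of -0.0178, and Lpl+/- mice from 0.0193 to 0.269 with a median of 0.0918. All 8 Lpl+/- mice lay above the pool, against 4 of 8 wild type mice, and 6 wild type mice lay below the lowest Lpl+/- mouse. The groups overlapped through wild type 4 and wild type 6, at 0.139 and 0.0814. As folds over the pool these values span 0.702 to 1.38 in wild type and 1.05 to 1.86 in Lpl+/- livers. The 8 Lpl+/- livers averaged 0.102 ± 0.0820 (SD) and the 8 wild type livers -0.0188 ± 0.1 (SD), a fold of 1.32 with a 95% interval of 1.07 to 1.63. On a log2 reading the fold would be 1.09. Across all features this did not pass (limma adjusted p = 0.836, unadjusted p = 0.0124), and the exact permutation p for Cd36 alone was 0.0199.

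**Figure D1:**
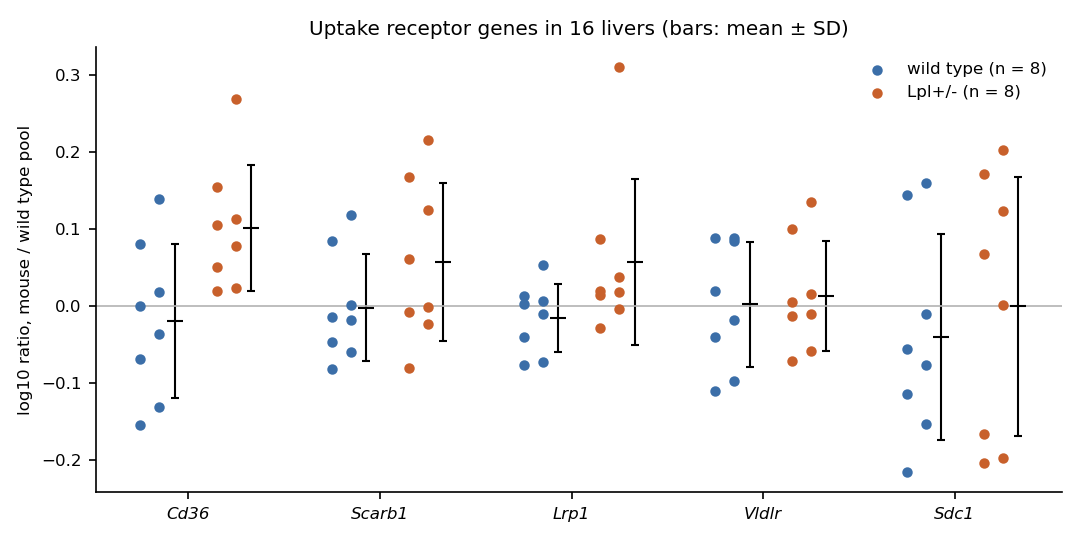
Log10 ratio of mouse over wild type pool for each of the 5 genes; points are single livers, 8 wild type and 8 Lpl+/-, and bars are the mean ± SD. All 8 Lpl+/- mice lie above 0 for Cd36, 1 Lpl+/- mouse stands at 0.310 for Lrp1, and both groups are widely spread for Sdc1.

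Cd36 is also made by platelets, adipocytes, macrophages and endothelium, so markers of these cells were set beside it. Platelet markers stood higher in 5 of 6 genes, and the mean of the list ranged from -0.0474 to 0.0334 in wild type and from 0.000133 to 0.0424 in Lpl+/- livers. Among them the platelet chemokine gene Ppbp stood at 1.19-fold (limma adjusted p = 0.836). Adipocyte markers stood higher in 4 of 7 genes (list mean -0.120 to 0.0414 in wild type, -0.185 to 0.127 in Lpl+/-). Kupffer cell markers stood lower in 10 of 12 genes (-0.155 to 0.131 and -0.160 to 0.125) and sinusoidal endothelium markers in 7 of 12 (-0.0267 to 0.0293 and -0.0439 to 0.0421). Their part in the Cd36 difference was not tested.

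Scarb1 in wild type mice ranged from -0.0811 to 0.119 with a median of -0.0159, and in Lpl+/- mice from -0.0797 to 0.215 with a median of 0.0302. The lowest mice of both genotypes stood at about the same value, and 3 Lpl+/- mice, at 0.125, 0.168 and 0.215, were above every wild type mouse. The means were 0.0575 ± 0.103 in Lpl+/- and -0.00178 ± 0.0697 in wild type livers (SD, n = 8 each), a fold of 1.15 with a 95% interval of 0.937 to 1.40 (limma adjusted p = 0.836). The exact permutation p was 0.199.

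Lrp1 in wild type mice ranged from -0.0765 to 0.0529 with a median of -0.0031. In Lpl+/- mice it ranged from -0.0285 to 0.310 with a median of 0.0189. A single Lpl+/- mouse, number 4, stood at 0.310 and the next at 0.0876, while the other 6 lay within the wild type range. The means were 0.0569 ± 0.108 in Lpl+/- and -0.0151 ± 0.0446 in wild type livers (SD, n = 8 each), a fold of 1.18 with a 95% interval of 0.977 to 1.43 (limma adjusted p = 0.836). Without Lpl+/- 4 the difference fell from 0.0720 to 0.0358. The exact permutation p with all mice was 0.0570.

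Vldlr, averaged over its probes, spanned -0.110 to 0.089 in wild type and -0.0709 to 0.136 in Lpl+/- mice, with medians of 0.00075 and -0.0026. The groups overlapped over most of their range. The fold was 1.03 with a 95% interval of 0.859 to 1.22 (limma adjusted p = 0.961), and the exact permutation p was 0.777. Both probes followed each other over the 16 mice (r = 0.902, permutation p = 3e-05, rho = 0.905), with the same sign in 14 mice. They differed in scale, with an SD of 0.118 for one and 0.0334 for the other, a ratio of 3.53, so the size of a Vldlr change depends on the probe. Without the 2 mice farthest from the median, r was 0.915.

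Sdc1 varied most between mice of the 5 genes. Its SD within genotypes was larger than that of 96.8% of all features. Wild type mice ranged from -0.216 to 0.161 with a median of -0.0659, and Lpl+/- mice from -0.203 to 0.202 with a median of 0.0346. In the Lpl+/- group 3 mice stood at -0.166 or lower and 3 at 0.124 or higher, and the other 2 between them. The means were 5e-05 ± 0.168 in Lpl+/- and -0.0398 ± 0.134 in wild type livers (SD, n = 8 each), a fold of 1.10 with a 95% interval of 0.776 to 1.55 (limma adjusted p = 0.921). The exact permutation p was 0.599.

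**Figure D2:**
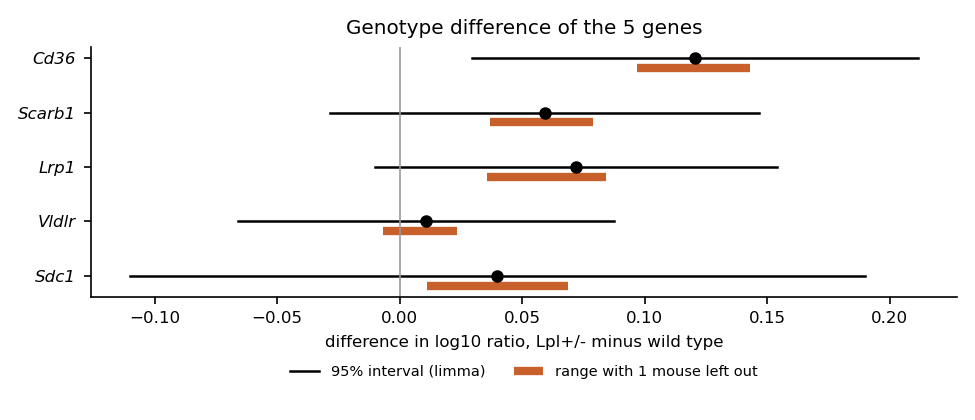
Difference in log10 ratio, Lpl+/- minus wild type, for the 5 genes; the point and black line are the limma estimate and its 95% interval, and the orange bar is the range of the estimate when each of the 16 mice is left out. The interval of Cd36 lies above 0 and the other 4 cross it.

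Of the 5 genes, 0 passed an adjusted p of 0.05, while 0.0163% of all features did (6 of 36824). At an unadjusted p under 0.05 there was 1, Cd36, where 5.6% of features met that p and 2.23% were higher at it. The genotypes overlapped in all 5 genes, and 0.038% of all features had groups that did not overlap. All 5 stood higher on average in Lpl+/- livers, with a median difference of 0.0593, against 18766 of 36824 features and a median of 0.00053. Turning wild type 5 moved the Cd36 difference from 0.121 to 0.125. Turning wild type 8 moved it to 0.0821, and its unadjusted p then rose to 0.0730 (limma adjusted p = 0.774). Turning wild type 8 also put Vldlr lower in Lpl+/- livers, by 0.0165, and gave Lrp1 an unadjusted p of 0.0383 (limma adjusted p = 0.774 for Lrp1).

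In the genes around these receptors 0 were called apart from Lpl. Among 26 measured genes of heparan sulfate proteoglycans and their synthesis 19 stood higher and 7 lower, where 18766 of 36824 features stood higher. At an unadjusted limma p under 0.05 there were 3, where 5.6% of all features met that p. These were Gpc1 (glypican 1) at 1.45-fold, Sulf2, a sulfatase that trims heparan sulfate and lowers remnant uptake in mouse liver, at 1.23-fold, and the chain-elongating enzyme gene Ext2 at 1.13-fold (limma adjusted p = 0.836 each). Among 17 genes of the LDL receptor family and its adaptors, 7 stood higher and 10 lower, with Lrp11 at an unadjusted p of 0.0497. The sorting receptor gene Sort1 was at 0.909-fold (limma adjusted p = 0.836). Scavenger receptors and their partners split 6 higher and 9 lower, with the kinase gene Fyn, a partner of CD36, at 0.895-fold (limma adjusted p = 0.836).

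Fatty acid transport and activation genes split 6 higher and 10 lower. Acsl4, an acyl-CoA synthetase with a preference for arachidonate, was at 0.810-fold and the fatty acid binding protein gene Fabp5 at 0.622-fold, while Slc27a2, which encodes the transporter FATP2, was at 1.15-fold (limma adjusted p = 0.836 each). Of 16 lipoprotein ligands and lipases, 7 stood higher and 9 lower. Apoa1, the main protein of high density lipoproteins and so the ligand of SR-BI, was at 0.822-fold and Pltp, which transfers phospholipids between lipoproteins, at 0.741-fold (limma adjusted p = 0.836 each). Apob was at 1.29-fold (limma adjusted p = 0.836) and Apoe, a ligand of LRP1 and syndecan 1, at 1.01-fold (limma adjusted p = 0.989). PPAR alpha targets split 8 higher and 9 lower, and genes that rise with PPAR gamma or LXR in fatty liver 8 higher and 6 lower. The median differences of these lists lay between -0.00993 and 0.0145.

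The receptors were next compared across the 16 mice after the mean of each genotype had been subtracted. Correlations were tested with 100000 permutations within genotypes and adjusted over 10 pairs. All genes of a mouse share 1 array column, so noise of that array is shared too. Scarb1 and Sdc1 rose and fell together from mouse to mouse (r = 0.895, permutation p = 5e-05, adjusted p = 0.0005, rho = 0.876). Both were highest in Lpl+/- 5 and Lpl+/- 3, at 0.215 and 0.168 for Scarb1 and at 0.202 and 0.172 for Sdc1, while the next 3 mice were for both genes Lpl+/- 8, wild type 4 and wild type 6. Lpl+/- 3, wild type 4 and Lpl+/- 8 are also the arrays with the most values at the limit (88, 52 and 28) and the widest spread over all probes (SD 0.144, 0.112 and 0.134). Without them r was 0.857 over 13 mice (adjusted permutation p = 0.0126). The relation held within 8 wild type mice (r = 0.839, exact permutation p = 0.0149) and within 8 Lpl+/- mice (r = 0.929, exact permutation p = 0.00181). Without the 2 mice farthest from the median, wild type 6 and Lpl+/- 5, r was 0.862. With 1 mouse left out r lay between 0.878 and 0.931, and turning wild type 5 or wild type 8 gave 0.913 or 0.890. Many genes vary together in these livers: of 19895 other genes, 59 (0.297%) had a higher r with Scarb1 than Sdc1 had, and 121 (0.608%) had a higher r with Sdc1 than Scarb1 had.

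Cd36 was positively correlated with Scarb1 (r = 0.600, adjusted permutation p = 0.0431), Vldlr (r = 0.615, adjusted permutation p = 0.0452) and Sdc1 (r = 0.647, adjusted permutation p = 0.0369). The Spearman values were 0.521, 0.562 and 0.579, with an adjusted permutation p of 0.1 for each. These relations rested on few mice. Without wild type 4 and Lpl+/- 3, the highest Cd36 values of their genotypes, r was 0.443, 0.388 and 0.484. Lrp1 stood apart from the other 4 genes, with r = -0.200 with Cd36, -0.0549 with Scarb1, 0.0847 with Sdc1 and -0.462 with Vldlr (adjusted permutation p = 0.127 for Vldlr). Vldlr had r = 0.193 with Scarb1 and 0.0430 with Sdc1. The mice also formed sets of 7 and 9 by their clock genes. Within them Scarb1 and Sdc1 had r = 0.867 and 0.927, and Cd36 had r = 0.878 and 0.632 with Scarb1, 0.494 and 0.621 with Vldlr and 0.984 and 0.509 with Sdc1.

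**Figure D3:**
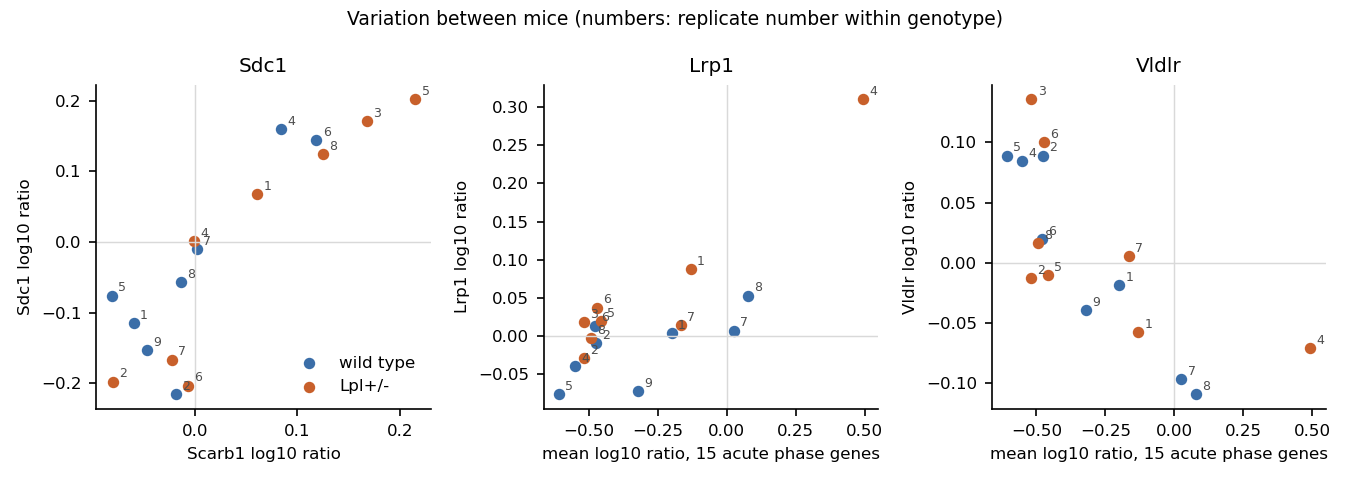
Log10 ratios of single livers (points, numbered by replicate; blue wild type, orange Lpl+/-), for Sdc1 against Scarb1, Lrp1 against the mean of 15 acute phase genes, and Vldlr against the same mean. Sdc1 rises with Scarb1 in both genotypes, Lrp1 is highest in Lpl+/- 4, where the acute phase mean is also highest, and Vldlr is below 0 in 6 of the 7 mice with the higher acute phase means.

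Each receptor was also set against the means of 21 gene lists and a clock score, 110 relations in all, over which p-values were adjusted. Both Scarb1 and Sdc1 moved with the 26 heparan sulfate genes (r = 0.829, adjusted permutation p = 0.00385 for Scarb1, and r = 0.855, adjusted permutation p = 0.00733 for Sdc1). The Spearman values were 0.850 and 0.891. Without wild type 6 and Lpl+/- 5, r was 0.784 and 0.851. Of the 26 genes, 13 had r over 0.5 with Scarb1 and 11 with Sdc1, while 15.7% and 16.7% of all genes did. The closest was Sdc4, another syndecan, with r = 0.894 for either receptor, and Sdc2 had r = 0.784 and 0.778. Core protein genes Hspg2 (perlecan; 0.769 and 0.734) and Gpc3 (glypican 3; 0.725 and 0.645) followed, with Extl3, which starts the heparan sulfate chain, at 0.715 and 0.812 and B3galt6, of the linker to the core protein, at 0.657 and 0.733. Members on the opposite side were Agrn (-0.432 and -0.588), Xylt1 (-0.421 and -0.499) and Ext1 (-0.477 and -0.448), so the list did not move as a whole.

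Sdc1 also marks plasma cells and bile duct cells. Its r with the mean of 6 plasma cell markers was -0.0581, and with the mean of 8 bile duct markers it was -0.579 (adjusted permutation p = 0.132). For Scarb1 the bile duct value was -0.659 (adjusted permutation p = 0.0662). Bile duct marker means lay between -0.0389 and 0.0220 in wild type and between -0.0349 and 0.0346 in Lpl+/- livers.

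Lrp1 rose with acute phase genes, which hepatocytes induce during inflammation (r = 0.850, adjusted permutation p = 0.0163, rho = 0.771). All 15 genes of the list had r over 0.5 with Lrp1, against 8.74% of all genes. Orm1 (orosomucoid, r = 0.928), Lcn2 (lipocalin 2, r = 0.917), Itih4 (r = 0.911) and Hpx (hemopexin, r = 0.909) were closest. The acute phase mean lay between -0.608 and 0.0769 in wild type mice and between -0.519 and 0.493 in Lpl+/- mice. Its highest value was in Lpl+/- 4, which also had the highest Lrp1 and the lowest hepatocyte marker mean. The hepatocyte list includes plasma protein genes that can themselves be lowered in the acute phase response, so it is not a separate measure. Without Lpl+/- 4, r was 0.662, no longer past the adjusted threshold (adjusted permutation p = 0.0983), and 9 of 15 genes kept r over 0.5, against 4.10% of all genes. The call also ended without wild type 8 alone (r = 0.845, adjusted permutation p = 0.0669), and without both mice r was 0.545.

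Lrp1 also moved with the mean of 15 scavenger receptors and partners (r = 0.746, adjusted permutation p = 0.0192, rho = 0.682). Of these genes 5 had r over 0.5, against 8.74% of all genes. The other 10 did not, the median r of the list was 0.0660 and the lowest was -0.369 for Fyn, so most members did not follow Lrp1. The rank correlation was not past the threshold (adjusted permutation p = 0.0737). Msr1, the macrophage scavenger receptor A gene, had the highest r of the list, 0.807, and Pdzk1, the adaptor that stabilises SR-BI in liver, had 0.622. Without Lpl+/- 4 the list's r fell to 0.610 (adjusted permutation p = 0.128), and without wild type 8 it was 0.735 (adjusted permutation p = 0.0750), neither past the threshold. Lrp1 is also made by macrophages and stellate cells, and its r was 0.459 with Kupffer cell markers and 0.437 with stellate cell markers, neither past the threshold.

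Vldlr ran opposite to the acute phase genes (r = -0.764, adjusted permutation p = 0.0163), while the rank correlation was just short of the threshold (rho = -0.715, adjusted permutation p = 0.0512). Of the 15 genes, 14 had r under -0.5, against 10.4% of all genes, with the serum amyloid A genes Saa1 (-0.808), Saa2 (-0.800) and Saa3 (-0.782) at the far end. Within 8 wild type mice r was -0.948 (exact permutation p = 0.000843) and within 8 Lpl+/- mice -0.641 (exact permutation p = 0.0865). The 9 mice with acute phase means under -0.4, a split chosen after the values were seen, had Vldlr values from -0.0125 to 0.136, and the other 7 from -0.110 to 0.00515. Inside these sets r was -0.269 and -0.718. Without wild type 8 and Lpl+/- 4, r was -0.766, and with wild type 8 alone left out it was -0.724 (adjusted permutation p = 0.0537).

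Vldlr was also lower where plasma cell markers were higher (r = -0.760, adjusted permutation p = 0.0165, rho = -0.774). Among the 6 markers, 3 had r under -0.5, against 10.4% of all genes. These were Mzb1 (-0.653), Derl3 (-0.616) and Jchain (-0.585), which act in the making and secretion of antibodies. Prdm1 and Tnfrsf17 had r = 0.146 and 0.0816. Plasma cell means ran from -0.172 to 0.133 in wild type and from -0.0954 to 0.109 in Lpl+/- livers. The highest were in wild type 7, Lpl+/- 4, Lpl+/- 1 and wild type 8 (0.133, 0.109, 0.0485 and 0.0261). The same mice had the highest acute phase means (0.0253, 0.493, -0.130 and 0.0769). Whether Vldlr varied with plasma cell markers apart from acute phase genes was not tested. Without wild type 7 the relation to plasma cell markers was no longer past the adjusted threshold (r = -0.727, adjusted permutation p = 0.0569). With sinusoidal endothelium markers, where Vldlr is also made, r was 0.628 (adjusted permutation p = 0.0793).

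Cd36 moved with the mean of 13 clock genes (r = 0.908, adjusted permutation p = 0.00385, rho = 0.862), within 8 wild type mice (r = 0.909, exact permutation p = 0.00270) as within 8 Lpl+/- mice (r = 0.909, exact permutation p = 0.00332). Of the 13 genes, 3 had r over 0.5, Hlf (0.806), Tef (0.794) and Cry1 (0.590), against 18.1% of all genes. Without wild type 6 or without Lpl+/- 2 there were 6. With all mice the count of 3 was near the share of all genes. The median r of the list was 0.363, so most members did not follow Cd36 closely. Hlf and Tef encode transcription factors of clock output in liver. The core genes Arntl (-0.297) and Clock (-0.446) had negative values. The mean averages clock genes of opposite phase, so it does not measure clock phase. It ran only from -0.0803 to 0.0338 in wild type and from -0.0450 to 0.0417 in Lpl+/- livers. A score of clock phase, in which the average of Dbp and Per2 was taken from Arntl, had r = -0.336 with Cd36 (adjusted permutation p = 0.425), and within the sets of 7 and 9 mice by that score Cd36 kept r = 0.946 and 0.879 with the mean. With quantile normalization of the arrays, r fell to 0.606 (adjusted permutation p = 0.172).

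Cd36 also followed genes that are known to be higher in female than in male mouse liver (r = 0.761, adjusted permutation p = 0.0192, rho = 0.753), although all these mice were male. Of 9 such genes, 6 had r over 0.5, against 18.1% of all genes. Among them were the cytochrome P450 genes Cyp2b13 (0.817) and Cyp2b9 (0.816), Fmo2 (0.725) and Acot3 (0.699), while Sult3a1 had r = -0.576. Cd36 is itself higher in female mouse liver. Without wild type 4 and Lpl+/- 3, r was 0.588. Leaving out wild type 4, wild type 8 or Lpl+/- 3 ended the call (adjusted permutation p = 0.0795, 0.0690 and 0.116). The list means did not separate the genotypes, with -0.183 to 0.164 in wild type and -0.183 to 0.179 in Lpl+/- livers. They did separate the mice by clock score. The 7 mice with a negative score had means of -0.00472 or higher, and the 9 with a positive score -0.0176 or lower. Within these sets Cd36 had r = 0.904 and 0.779 with the list mean.

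**Figure D4:**
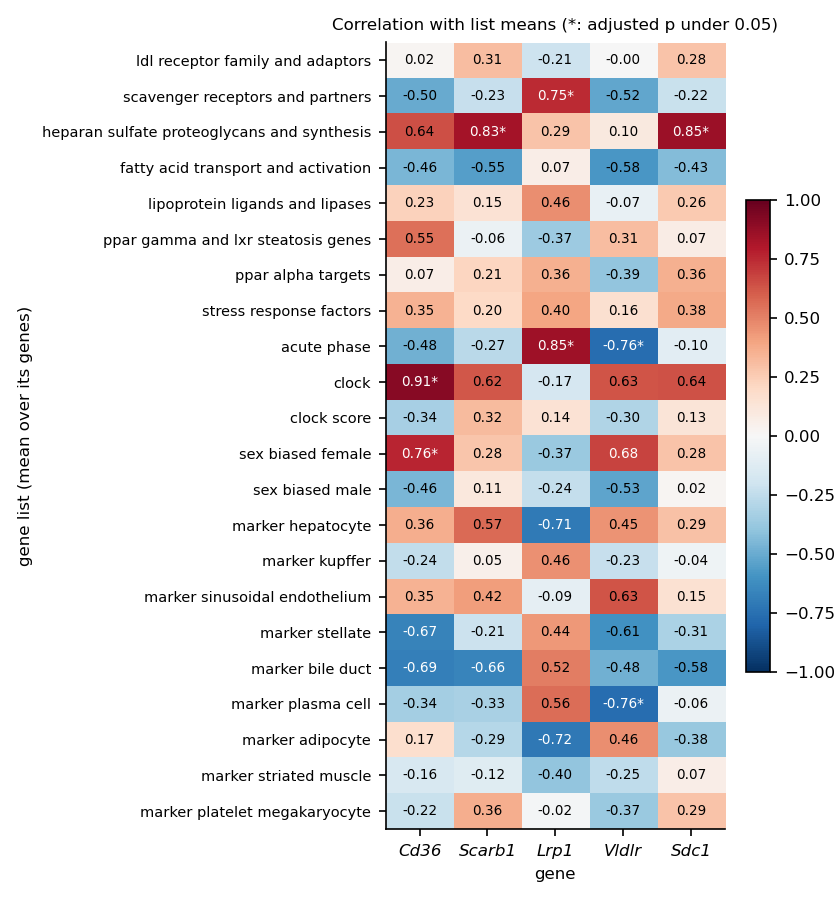
Pearson r over 16 mice, genotype means subtracted, of each of the 5 genes (columns) with the mean of each gene list and the clock score (rows); red is positive, blue negative, and an asterisk marks an adjusted permutation p under 0.05 over 110 relations. Asterisks stand at 8 relations, including those of Scarb1 and Sdc1 with heparan sulfate genes and those of Lrp1 and Vldlr, with opposite sign, with acute phase genes.

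Of the 110 relations 8 passed, and turning wild type 5 or wild type 8 gave 10 or 4. Those of Scarb1 and Sdc1 with heparan sulfate genes and those of Cd36 with clock and female-biased genes passed under either turn. The relations of Lrp1 and Vldlr did not pass with wild type 8 turned (r = 0.793 for Lrp1 and -0.589 for Vldlr with acute phase genes).

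Single genes with the most similar pattern over the 16 mice were named by rank of r, as a description. For Cd36 they were Bche, which encodes butyrylcholinesterase (r = 0.934), Pogz (0.922) and Myo10 (0.920). For Scarb1 they were Ei24 (0.961), Parg, which encodes the enzyme that breaks down poly(ADP-ribose) (0.953), and the tetraspanin gene Cd82 (0.944). For Sdc1 they were Akt1s1 (0.963), the ubiquitin-conjugating enzyme variant gene Ube2v1 (0.956) and the deubiquitinase gene Usp4 (0.955). For Lrp1 the first was the complement gene Cfb (0.946), also made in the acute phase response, then Rnf208 (0.943) and Kif17 (0.940). For Vldlr they were the anion exchanger gene Slc26a4 (0.930), Theg (0.912) and Akap5 (0.894). The genes with r over 0.8 numbered 673 for Sdc1, 501 for Scarb1, 420 for Cd36, 179 for Lrp1 and 66 for Vldlr. Ranked by cosine similarity of the values without subtracting genotype means, Ei24 stayed first for Scarb1 and Slc26a4 for Vldlr, while Pogz moved to place 587 for Cd36 and Rnf208 to 484 for Lrp1.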

How the data were processed

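Livers of 8 Lpl+/- and 8 wild type mice were hybridised with Cy3 and Cy5 against a common pool, with dye swap, per the labels. The deposited table holds 1 column of log ratios per mouse, read as log10 since they end at exactly 2 and -2; no source used here says how the authors corrected, normalized and merged the swapped arrays. Of 39556 probes, 23283 had 1 gene symbol, 16273 none and 0 several, from the platform annotation. Probes of a symbol were averaged, which gave 36824 features, and 5297 symbols were updated through RefSeq (GRCm38.p6). There were 0 missing values, array medians lay between -0.0045 and 0.0072, and the values at those limits numbered 0 to 88 per array.

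Genotypes were compared over all features with limma 3.58.1 in R 4.3.3 (lmFit and eBayes, two-sided, Benjamini-Hochberg, threshold 0.05), with 95% intervals from that fit, and each receptor alone by an exact two-sided permutation test over 12870 assignments. Correlations used residuals from the genotype means, 100000 permutations within genotypes, or all 40320 orders within 8 mice, in Python 3.11.15 with numpy 2.4.6 and scipy 1.17.1; all were two-sided. Correlations with all genes covered 19896 genes, leaving out features whose updated symbol another feature already held. The number of mice limits the precision. The fits were tested on simulated data. Whether mice with the same replicate number pair was checked over 7 numbers: their correlations lay between -0.245 and 0.381 and 1 of 7 arrays matched its own number best, so no pairing was used. Named were the 5 receptors, Lpl, the called genes and up to 3 others with the smallest p of each list described, and the 3 genes most similar to each receptor; Apoe, the list genes named for their correlation and the motifs shown were chosen after their values were seen. The members and lists were chosen with earlier results of these data known. Alternatives covered centring, quantile normalization, probes, prior, weights, block, signs and each mouse left out.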

Additional observations from a re-analysis of the deposited data

Results flagged for a closer look

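In the 8 Lpl+/- mice, Lrp1 in Lpl+/- 4 stood far from the other 7, at 0.310 against 0.0876 for the next mouse. The gap was 0.657 of the group's whole range, above the critical value of 0.526 for 8 mice. Of 12 groups of 8 mice looked at, this was the only one so marked, and chance marks about 1 in 20. In the same liver the acute phase mean was the highest of the 16 mice (0.493) and the hepatocyte marker mean the lowest (-0.157). These means are not separate measures, since the hepatocyte list includes plasma protein genes that can be lowered in the acute phase response. The hepatocyte markers did not move as a whole, with r from -0.822 to 0.839 with Lrp1 over all mice. Whether these means explain the Lrp1 value was not tested.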

How the results depend on the processing

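Of the 5 receptors 0 were called under any of 30 alternatives, and Cd36 kept its direction and an unadjusted p under 0.05 in 27 of them (adjusted p from 0.521 to 0.987, limma). With 1 mouse left out the differences ranged from 0.0967 to 0.143 for Cd36, 0.0358 to 0.0842 for Lrp1, 0.0367 to 0.0788 for Scarb1, -0.00660 to 0.0233 for Vldlr and 0.0110 to 0.0689 for Sdc1. Direction turned for Vldlr with the sign of wild type 8 turned (-0.0165). With the replicate block on the 14 arrays that share a number, Vldlr stood at -0.0126 and Sdc1 at -0.000743, and the same 14 arrays without the block gave the same -0.0126 and -0.000743, while Cd36 stood at 0.0807 (limma adjusted p = 0.942). The features called fell from 6 to 0 with quantile normalization (1923 at an unadjusted p under 0.05) and 0 with a trended and robust prior (1979), 1 with the block, 1 on the same arrays without it, 3 with wild type 8 turned and 1 without the 3 arrays that hold the most limit values (Lpl+/- 3, Lpl+/- 8 and wild type 4), and they ranged from 1 to 9 with 1 mouse left out. The Lpl call itself ended in 7 of its alternatives, with a limma adjusted p from 0.0523 (the 14 arrays without a block) to 0.837 (trended and robust prior), among them the fits without wild type 8 (0.0526) or Lpl+/- 2 (0.0577), while its difference stayed between -0.432 (quantile normalization) and -0.343 (14 arrays) in these 7, against -0.378. The cause of these changes was not tested.

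Scarb1 with Sdc1 and Scarb1 with heparan sulfate genes passed under every alternative run. Cd36 with Scarb1, Vldlr and Sdc1 did not pass with quantile normalization (r = 0.439, 0.550 and 0.455) or without the 3 arrays (0.465, 0.390 and 0.512), nor did they without the 2 mice farthest from the median (0.443, 0.388 and 0.484) or within Lpl+/- mice (0.652, 0.627 and 0.575), and within wild type mice the first 2 did not (0.594 and 0.606). Cd36 with Vldlr also did not pass with wild type 5 turned (0.588), wild type 8 turned (0.590) or the clock score regressed out (0.572). With 1 mouse left out these ranged from 0.518 to 0.677 (passing in 9 of 16), 0.496 to 0.712 (4 of 16) and 0.572 to 0.705 (10 of 16). Among pairs that did not pass, the sign turned for Lrp1 with Scarb1 (quantile 0.0488, without the 3 arrays 0.0988, within wild type 0.315, without 2 mice 0.294), Scarb1 with Vldlr (without the 3 arrays -0.110) and Vldlr with Sdc1 (quantile -0.104, without the 3 arrays -0.353). With 1 mouse left out, Cd36 with Lrp1 ranged from -0.299 to 0.0345, Lrp1 with Scarb1 from -0.218 to 0.236, Lrp1 with Sdc1 from -0.0284 to 0.173 and Vldlr with Sdc1 from -0.123 to 0.190.

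Among list means, quantile normalization ended the calls of Cd36 with clock genes (0.606) and female-biased genes (0.633), of Lrp1 with scavenger receptors (0.659) and of Vldlr with acute phase genes (-0.649). Turning wild type 8 ended those of Lrp1 with scavenger (0.736) and acute phase genes (0.793) and of Vldlr with acute phase (-0.589) and plasma cell genes (-0.687). Without the 3 arrays, with 13 mice left, 6 did not pass: Cd36 with female-biased genes (0.592), Lrp1 with scavenger (0.799) and acute phase genes (0.846), Vldlr with acute phase (-0.756) and plasma cell genes (-0.757) and Sdc1 with heparan sulfate genes (0.847). Within 1 genotype the values that did not pass were 0.701 (Cd36, female-biased, wild type), 0.673 (Lrp1, acute phase, wild type), -0.641 (Vldlr, acute phase, Lpl+/-) and -0.660 (Vldlr, plasma cell, Lpl+/-), and without the 2 farthest mice Lrp1 had 0.545 with acute phase and 0.470 with scavenger genes. With 1 mouse left out r ranged from 0.693 to 0.826 for Cd36 with female-biased genes, 0.610 to 0.796 and 0.662 to 0.881 for Lrp1 with scavenger and acute phase genes, and -0.816 to -0.724 and -0.815 to -0.727 for Vldlr with acute phase and plasma cell genes. For correlations the removal of the 3 arrays, and for list means also quantile normalization and single mice left out, were chosen after seeing the data.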
